A study of Mus musculus with 12 samples.

Results

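The cytosolic ribosomal proteins are the protein components of the large and small ribosomal subunits that translate messenger RNA outside mitochondria. Their genes were chosen by symbol (Rpl, Rps or Rplp followed by a number, and Rpsa), with pseudogenes and the ribosomal S6 kinases left out. The choice by symbol used no measured value, but where several probesets named a gene, the one brightest on average stood for it. Of 22180 genes that the platform annotation names by a probeset of their own, 64 were members, 40 of the large and 24 of the small subunit. RefSeq lists 81 protein-coding mouse genes that match the rule, and 62 of them were members. The other 19, among them Rpl10, Rpl13a and Rps15a, had no probeset that named them alone in the annotation used here.

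Nucleus accumbens (NAC) was micropunched from adult female outbred hsd:ICR mice, with 1 GeneChip Mouse Gene 2.0 ST Array for the RNA of every animal. The maternal group held 6 lactating mice collected on postpartum day 7 with litters of 11 pups, housed earlier with a breeder male. The control group held 6 age-matched virgin mice in diestrus, housed earlier with other females. The punch took core and shell, so every value is a mixture of all cell types of the tissue. In such tissue fewer cells of a type and less RNA per cell cannot be told apart.

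Each ribosome carries a single copy of nearly every ribosomal protein, and cells keep the messages of these genes abundant and closely matched. In most of them the transcript opens with a C followed by a run of pyrimidines, the 5′ terminal oligopyrimidine (TOP) tract, through which mTORC1 and the RNA-binding protein Larp1 set how much of the message is translated. That control acts on translation, which an array does not measure. In neurons ribosomes are present in the soma and in dendrites, where local translation takes part in synaptic plasticity. Mammalian genomes hold many processed pseudogenes of this family, so that several places in the genome nearly match 1 member.

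The start sites of 8 members that the results below return to are shown from RefSeq (GRCm38.p6), 15 bases before the annotated start and 15 from it onward, on the gene's strand. Capitals mark the words CTTTC and CTTTT, the related word CTTCC, and finally the word CTCTT, which can overlap each other and which resemble a TOP tract.
Rps16, chr7:28350674-28350703, plus strand: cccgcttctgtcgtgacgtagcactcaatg
Rpl27a, chr7:109519180-109519209, plus strand: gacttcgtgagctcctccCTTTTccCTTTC
Rplp2, chr7:141447636-141447665, plus strand: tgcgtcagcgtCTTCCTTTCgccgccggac
Rps6, chr4:86857353-86857382, minus strand: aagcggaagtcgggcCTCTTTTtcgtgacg
Rpl35, chr2:39005117-39005146, minus strand: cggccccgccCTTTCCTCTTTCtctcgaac
Rps27, chr3:90213634-90213663, minus strand: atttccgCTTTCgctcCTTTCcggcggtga
Rps27l, chr9:66946071-66946100, plus strand: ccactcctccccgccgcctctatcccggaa
Rps28, chr17:33824548-33824577, minus strand: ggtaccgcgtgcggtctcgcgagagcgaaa
Rps6 and Rps16 stand for the flattest and the most changed member, Rps27 and Rps27l are a parent gene and its paralog, and Rpl35 and Rps28 are genes whose probesets differed. At least 1 of these words, on the gene's strand, lay in the 30-base window of 23 of the 49 members with a RefSeq promoter row (46.9%) and of 15.3% of all 27025 genes with one. In the whole window of 250 bases before and 50 after the start, searched on both strands, CCGGAAG (letters found in ETS factor sites) occurred in 42.9% of the members and 9.12% of all genes. ATGGCG (found in YY1 sites) occurred in 30.6% against 9.24%, and TATAAA, the TATA box letters, in 8.16% against 14.2%. These are matches of letters only.

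Ribosomal protein transcripts were at nearly the same level in postpartum and virgin NAC. A single member, Rps16, was higher in postpartum mice at the threshold of limma p under 0.01, and 0 were lower, so that 1.56% of the members passed against 2.8% of all 22180 genes (1.72% higher and 1.08% lower). Of the members, 1 passed at p under 0.03, where 6.56% of all genes did, and 2 at p under 0.05, where 9.91% did. The members thus passed no more often than all genes at any threshold. On linear intensities 1 member passed p under 0.01, where 4.2% of all genes did. P-values called exact below are from two-sided exact permutation tests of log2 intensity, in which 0.00216 is the smallest value that 6 against 6 mice allow. No gene on the array had an adjusted p under 0.05. In 0 members did the 2 groups fail to overlap, against 0.794% of all genes with all postpartum values above and 0.271% with all below the virgin values.

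The differences were small in size as well as few. Over the 64 members the median log2 difference, postpartum minus virgin, was 0.01, with quartiles of -0.03 and 0.06, a range of -0.23 (Rplp2) to 0.37 (Rps16) and a sign of the median that turned under other scalings. The median over all genes was -0.01, with quartiles of -0.08 and 0.06. Of the members 35 lay above zero and 29 below (54.7% above, against 47.9% of all genes). The absolute difference was under 0.2 in 62 members (96.9%, against 89.6% of all genes). The 95% interval of the difference stayed within 0.2 of zero in 28 members (43.8%, against 33.6%) and within 0.3 of zero in 51 (79.7%, against 65.2%), so that for most members a change of 0.3 or more in log2 was outside the interval. The members were brighter than most genes, with 46 of 64 (71.9%) above the median intensity of all genes, and the 32 brighter members had a median within-group SD of 0.10 in log2, against 0.14 in the 32 dimmer ones. Large and small subunit genes did not part, with medians of 0.01 (22 of 40 above zero) and 0.004 (13 of 24 above zero).

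**Figure D1:**
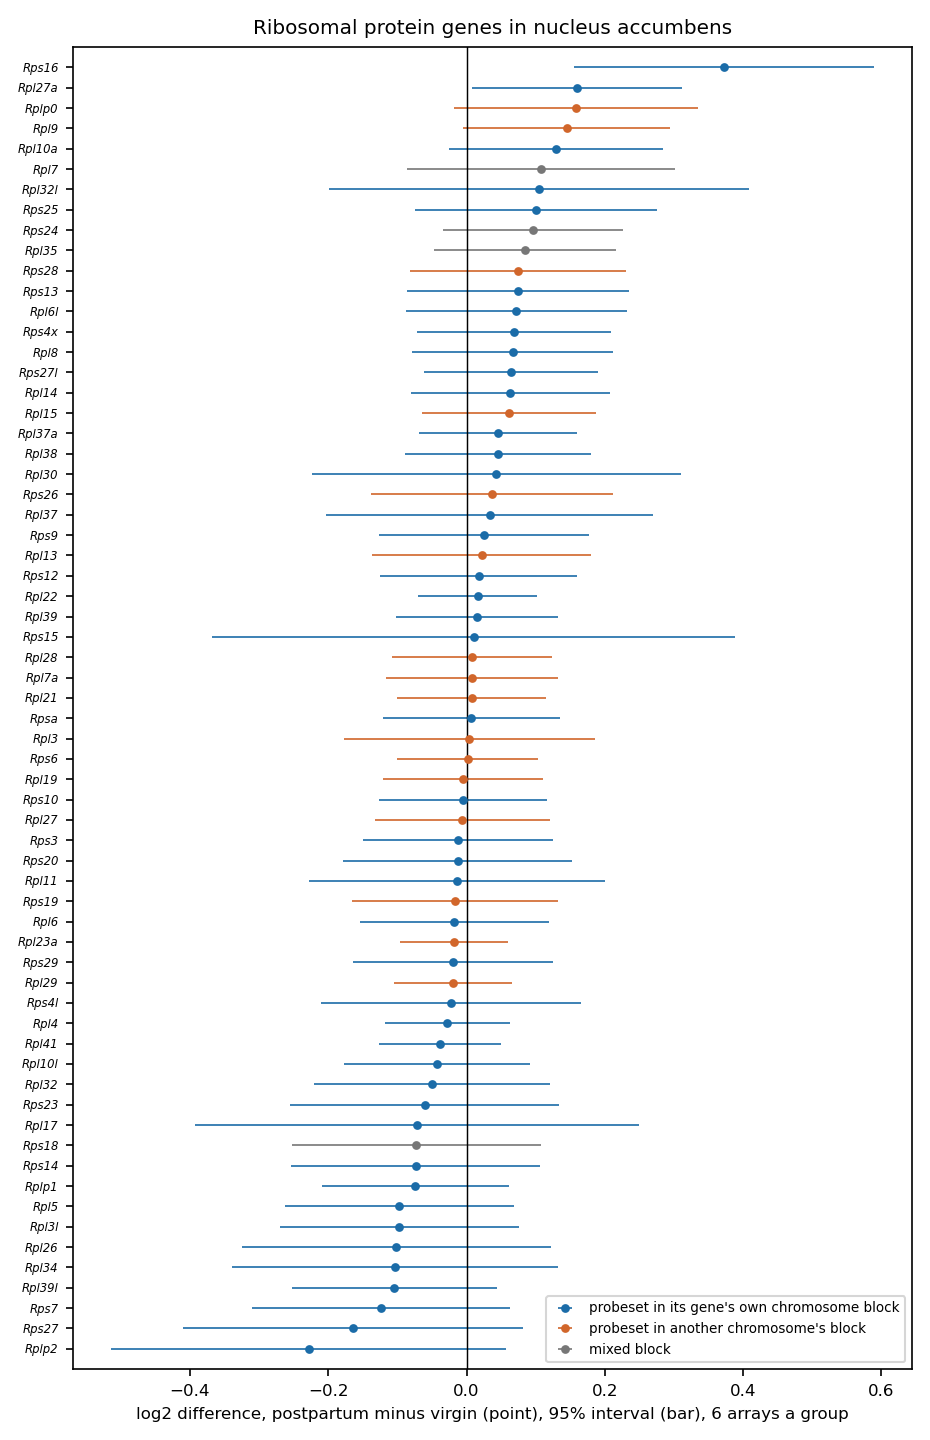
Log2 difference, postpartum minus virgin, of each of the 64 ribosomal protein genes (point) with its 95% interval (bar), 6 arrays a group, coloured by where the probeset lies in the order of the array. The points run from -0.23 for Rplp2 to 0.37 for Rps16, and only the intervals of Rps16 and Rpl27a leave out zero.

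Among small subunit members, Rps16, whose protein tail reaches the transfer RNA in the peptidyl site, differed most. Its intensity was 71.75, 73.13, 68.14, 88.14, 82.73 and 77.51 in postpartum mice and 55.95, 48.52, 71.52, 53.15, 62.57 and 66.50 in virgin mice. All but 1 of the postpartum values lay above every virgin value, the exception being postpartum mouse 3, and virgin mouse 3 was the only virgin animal within the postpartum range. The means were 76.9 ± 7.46 and 59.7 ± 8.67 (SD, n = 6 each), a log2 difference of 0.37 ± 0.10 (SE) with limma p = 0.00284, adjusted p = 0.351 and two-sided exact permutation p = 0.00433. The probeset is dim, well under the median intensity of all genes (226), and it is the only one that names Rps16.

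Rps6, the subunit protein that S6 kinases phosphorylate when mTORC1 is active, was among the brightest and the flattest. It ran from 9158 to 9902 with a median of 9544 in postpartum mice and from 8778 to 10483 with a median of 9530.0 in virgin mice. The postpartum range lay wholly inside the virgin range, and the difference was 0.002 ± 0.05 (SE, exact p = 0.952). Rps15, at the decoding side of the subunit, was the dimmest member and spread widely, from 42.0 to 80.1 in postpartum and from 39.8 to 67.5 in virgin mice (difference 0.01 ± 0.17). Its 95% interval, the widest of any member, ran from -0.37 to 0.39.

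Rps24 (lowest 1125, median 1185, highest 1235 in postpartum, and 975, 1086 and 1237 in virgin mice) differed by 0.10 ± 0.06. Its virgin values enclosed all 6 postpartum ones (exact p = 0.108). This probeset lies in a mixed block, as described below. Another Rps24 probeset in a mixed block gave 0.19 (exact p = 0.0866). The one in the gene's own block went the other way, at -0.07 (exact p = 0.472). Rps25, which several viral initiation sites need, was 302 ± 31.9 in postpartum and 281 ± 24.4 in virgin mice, with overlapping ranges of 258 to 352 and 247 to 320 (exact p = 0.234). Rps7, a protein that can bind Mdm2, was lower on average, at 655 ± 65.8 against 713 ± 67.7. Of its postpartum values 5 lay between 664.6 and 693.4, and postpartum mouse 1 stood apart at 522.3, and the difference of -0.12 ± 0.09 (exact p = 0.195) was -0.06 without that animal. Rps18, often used as a reference gene in quantitative PCR, gave 268 ± 27.7 and 282 ± 27.8 (difference -0.07, exact p = 0.405).

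**Figure D2:**
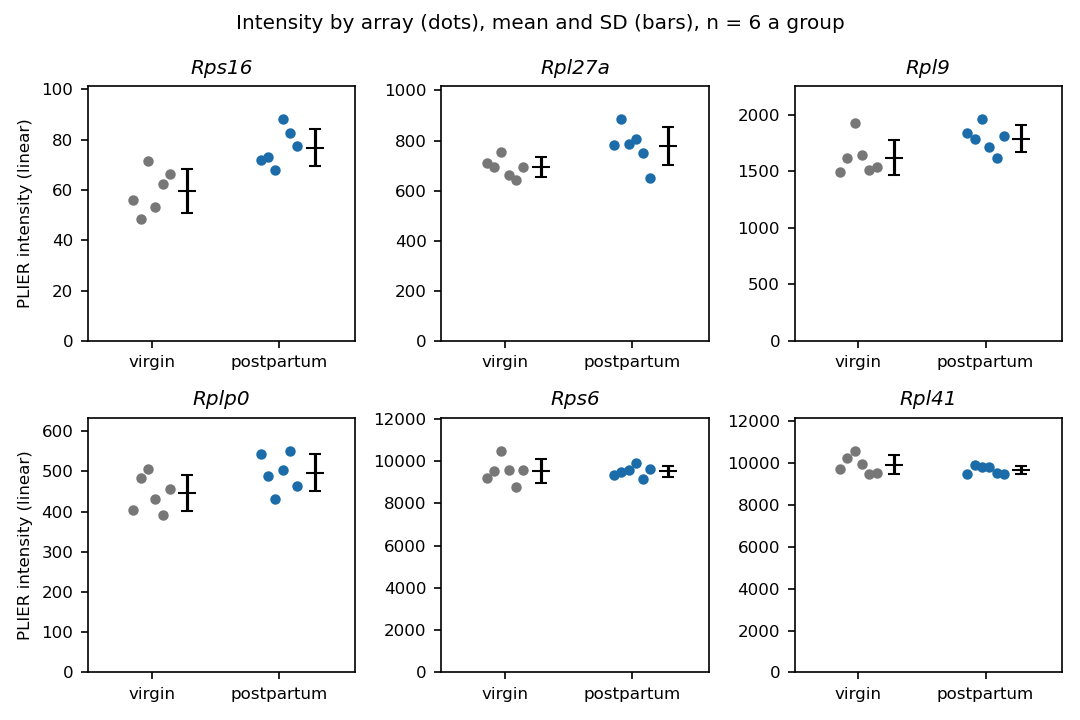
PLIER intensity on a linear axis from zero for 6 members, each dot 1 mouse, with the mean and SD of each group beside the dots (n = 6). Rps16 shows the widest gap (76.9 against 59.7), while for Rps6 and Rpl41 the postpartum dots lie close together at the level of the virgin dots.

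In the large subunit no member passed p under 0.01. Rpl27a was the closest and the only other member under 0.05. Its intensity was 782, 885, 786, 807, 750.1 and 652 in postpartum mice and 708, 696, 756, 661, 643 and 696 in virgin mice. Of the postpartum values 4 lay above every virgin value, and postpartum mouse 6 lay near the lowest virgin values. The means were 777 ± 76.3 and 693 ± 39.4, a difference of 0.16 ± 0.07 with limma p = 0.0407, adjusted p = 0.545 and exact permutation p = 0.0476. Without postpartum mouse 6 the difference was 0.21 and passed limma p under 0.01.

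Rpl9 was 1619 to 1962 (median 1803) in postpartum and 1499 to 1925 (median 1577) in virgin mice. All virgin values but that of virgin mouse 3 (1925) lay at or under 1645, and 5 of the 6 postpartum values lay above these. The difference was 0.14 ± 0.07 (exact p = 0.0606). Without virgin mouse 3 it was 0.20 and passed limma p under 0.01. This value comes from a probeset placed outside the gene's own chromosome, as described below. Rpl10a, the protein tagged in translating ribosome affinity purification, was 1216 ± 54.3 against 1116 ± 121 (difference 0.13, exact p = 0.0931), with the postpartum range of 1138 to 1295 inside the virgin range of 933 to 1298.

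Rpl5, which with Rpl11 carries 5S ribosomal RNA and can hold back Mdm2, was 153 ± 11.2 against 164 ± 17.3 (difference -0.10, exact p = 0.238). Rpl7 ran the other way by its brightest probeset, at 746 ± 45.9 against 697 ± 99.5 (0.11, exact p = 0.264). Neither difference exceeded the spread between mice. The brightest Rpl7 probeset lies in a mixed block, as described below. The one in the gene's own block went the same way as Rpl5, at 77.1 against 83.5 (-0.11, exact p = 0.273). Rpl35, at the exit tunnel, was 3851 ± 184 against 3639 ± 304 (0.08, exact p = 0.1645), with ranges of 3611 to 4165 and 3247 to 4085. This Rpl35 probeset also lies in a mixed block. Among the brightest members, Rpl41, the shortest of these proteins, was at 9655 ± 198 against 9920 ± 438 (difference -0.04 ± 0.04, exact p = 0.216). A much dimmer Rpl41 probeset, also in the gene's own block, had the opposite sign, at 227 ± 21.0 against 203 ± 17.9. Its difference was 0.16 (limma p = 0.0574, adjusted p = 0.571, exact p = 0.0693). Rpl41 probesets in other blocks gave -0.01, -0.03 and -0.05. Rpl21 was 9158 ± 321 against 9120 ± 571 (0.01 ± 0.05, exact p = 0.853), and Rpl29 was 6464 ± 83.3 against 6559 ± 278 (-0.02 ± 0.04, exact p = 0.485). Both of these probesets are placed outside the gene's own chromosome, as described below. Probesets placed on it gave -0.07 for Rpl21 (exact p = 0.188). For Rpl29 they gave -0.10 (limma p = 0.0531, adjusted p = 0.564, exact p = 0.0260), at 1025 ± 48.1 against 1097 ± 44.0. Rpl17, among the dimmest members, was 62.6 ± 10.7 against 66.1 ± 12.8 (-0.07 ± 0.15), too dim for a difference of this size to be told from zero.

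Rplp0, Rplp1 and Rplp2 encode the stalk of the large subunit, the flexible arm that calls elongation factors to the ribosome. Rplp0, the base of the stalk, ran from 432 to 552 (median 496) in postpartum and from 391 to 506 (median 444) in virgin mice. Only postpartum mice 1 and 5 lay above all virgin mice, and the difference was 0.16 ± 0.08 (exact p = 0.0779). Rplp1 went the other way without passing a threshold, at 5811 ± 439 against 6114 ± 376 (-0.07 ± 0.06, exact p = 0.232). Rplp2 was 64.92, 45.90, 42.26, 52.28, 49.14 and 63.21 in postpartum and 74.91, 53.48, 74.59, 57.78, 52.46 and 58.33 in virgin mice. Of its postpartum values 4 lay below every virgin value, and postpartum mice 1 and 6 lay among them, which left the lowest difference of any member, -0.23 ± 0.13, at exact p = 0.134. The 3 stalk genes therefore had no shared direction, and their probesets differ so much in brightness that Rplp2 is measured far less precisely than Rplp1.

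Some members are named for a parent gene with a closing l, and several of them are paralogs with a narrow pattern of expression. Rpl3l, the striated muscle paralog, was 171 ± 12.2 against 184 ± 21.9 (-0.10, exact p = 0.253), while its parent Rpl3 was 1590 ± 181 against 1580 ± 123 (0.004, exact p = 0.965). Rpl39l, the testis paralog, was 372 ± 32.4 against 399 ± 26.9 (-0.10, exact p = 0.147), and its parent Rpl39 was 1438 ± 74.1 against 1423 ± 87.2 (0.02, exact p = 0.760). By the brightest probesets, in both pairs the paralog had a lower mean in postpartum mice and the parent a level one. None of these differences was past the spread between mice. The level Rpl3 value comes from a probeset placed outside the gene's own chromosome, as described below. Rpl3 probesets placed on its own chromosome were lower on average in postpartum mice, at -0.05 (exact p = 0.595) and -0.27 (exact p = 0.0844).

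Rps27l, which is induced by p53, gave 338 ± 19.9 against 324 ± 22.6 (0.06, exact p = 0.247), and Rps27 gave 136 ± 17.8 against 153 ± 21.6 (-0.16, exact p = 0.195). Rpl10l, the testis retrogene of Rpl10, gave 189 ± 9.09 against 195 ± 16.5 (-0.04, exact p = 0.472). Over all 7 members of this kind the median was -0.02, with 3 above zero and 0 at p under 0.05. Their levels cannot be set against those of the parents, since different probesets bind with different strength.

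The members also differed from genes at large in their spread between mice. The SD of log2 intensity was smaller in the postpartum than in the virgin group in 53 of the 64 members (82.8%), against 59.5% of all genes. In the 32 brighter members it was smaller in 28 (87.5%), against 56.7% of the 4407 other genes above the members' median intensity. The median SD over members was 0.09 in postpartum and 0.14 in virgin mice, against 0.12 and 0.13 over all genes. For the 32 brighter members it was 0.07 and 0.12, against 0.07 and 0.08 over the other genes of like brightness. Members share their arrays, so these counts describe 12 mice and not 64 separate observations. The mean log2 deviation of mitochondrial ribosomal proteins on an array also spread less in postpartum mice (-0.01 to 0.06, against -0.14 to 0.05). So did that of oxidative phosphorylation genes (-0.01 to 0.04, against -0.10 to 0.04). Of the related lists below, elongation genes and ribosomal protein pseudogenes went the other way. The SDs were not computed without virgin mice 3 and 5, described next.

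A pair of virgin arrays, picked here after their values were seen, stood at the ends of the virgin spread. The median deviation of the 64 members from their own 12-array means was 0.13 in virgin mouse 3 and -0.14 in virgin mouse 5, and it lay between -0.04 and 0.01 in the other virgin mice and between -0.05 and 0.08 in the postpartum mice. Virgin mouse 3 had the highest virgin value in 38 of 64 members (59.4%) and in 18.5% of all genes. Virgin mouse 5 had the lowest in 39 (60.9%), against 18.7% of all genes. Among the 32 brighter members these were 26 and 25 (81.2% and 78.1%), against 27.4% and 29% of the other genes of like brightness. Other lists were also lowest of the virgin group in virgin mouse 5, with scores of -0.14 for mitochondrial ribosomal proteins, -0.10 for oxidative phosphorylation, -0.09 for other TOP genes, -0.08 for the proteasome and -0.07 for initiation factors. Virgin mouse 3 stood at 0.05, 0.02, 0.13, 0.04 and 0.06 in these lists, so the shift was not particular to the members. The other TOP genes and the initiation factors share several genes, so their scores are not separate.

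The shift in these mice ran through both subunits and through both of the larger sets of probesets that are set apart by placement below. In virgin mouse 3 the large subunit stood at 0.13 and the small at 0.12, and in virgin mouse 5 both stood at -0.14. Members with a probeset in their own chromosome's block stood at 0.11 and -0.13 in these mice, and those with a probeset elsewhere at 0.14 and -0.14. Not every brightest probeset took part. That of Rps18, in a mixed block, had its lowest virgin value, 239, in virgin mouse 3 and 299 in virgin mouse 5. The Rps18 probeset in the gene's own block went with the shift. Its highest virgin value, 165, was in virgin mouse 3 and its lowest, 136, in virgin mouse 5. The median deviation of all genes was 0.003 and 0.004 on the same arrays. The array medians were 154.71 and 164.98, the lowest and the highest of the virgin group, and the part of the array's own scaling in the shift was not tested. With both arrays left out, 1 member was again higher at p under 0.01 and 0 lower, and the median difference was 0.01.

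**Figure D3:**
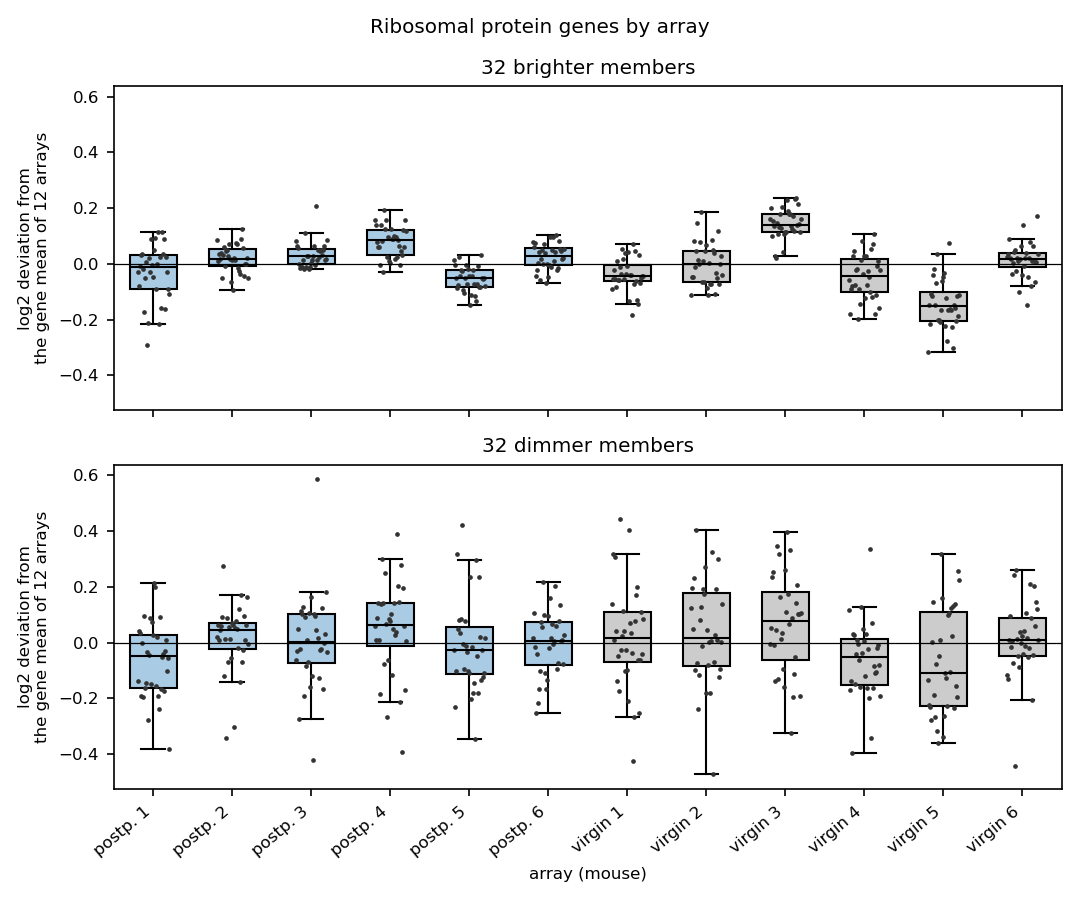
Log2 deviation of each member from its own mean over the 12 arrays, for the 32 brighter members (top) and the 32 dimmer members (bottom); boxes give the median and quartiles, whiskers reach 1.5 times the quartile range, blue is postpartum (postp.) and grey virgin. In the top panel all 32 members of virgin mouse 3 lie above zero and 30 of 32 of virgin mouse 5 below it, while the postpartum boxes stay close to zero.

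The members also rose and fell together from mouse to mouse. With group means removed, the median Pearson correlation between 2 members over the 12 arrays was 0.30 (2016 pairs), against -0.002 between a member and any other gene. It was 0.65 among the 32 brighter members and 0.07 among the 32 dimmer ones. Without virgin mice 3 and 5 the brighter members fell to 0.31 over 10 arrays. Other genes of like brightness stood at 0.07 before and 0.08 after. Mitochondrial ribosomal proteins gave 0.31 and 0.19, oxidative phosphorylation genes 0.24 and 0.09, and proteasome genes 0.24 and 0.11. These correlations share arrays and scaling and are given as a description.

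What the probesets read was uneven within the family. Probesets on this array are numbered in chromosome order, and 99.51% of 22873 placed probesets had neighbours from their gene's own chromosome. Of the 64 brightest probesets of members, 44 lay in their gene's own chromosome block, 16 in the block of another chromosome and 4 in a mixed block. Among the 16 were Rps6 (chromosome 4, probeset among those of chromosome 2), Rpl21, Rpl29, Rpl3, Rpl9, Rplp0 and Rps28. A probeset outside the gene's own block can bind transcripts of more than 1 place, so the values of these members are uncertain as measures of the named gene. The median difference was -0.01 over the 44, 0.01 over the 16 and 0.09 over the 4.

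For 18 genes a probeset of each kind was available, and the one in the gene's own block was dimmer in 14. The direction of the difference was shared in 9 of the 18, and the median within-group correlation of the 2 probesets was 0.17 (range -0.26 to 0.94). Rps28, at the messenger RNA exit of the small subunit, parted furthest (its second probeset is described because of its values). Its brighter probeset, in the block of chromosome 5, ran from 1368 to 1540 (median 1502) in postpartum and from 1280 to 1706 (median 1354) in virgin mice, a difference of 0.07 (exact p = 0.301).

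The dimmer Rps28 probeset, in the gene's own chromosome 17 block, gave 80.10, 85.14, 83.60, 86.92, 70.31 and 80.54 in postpartum and 98.39, 96.06, 108.98, 101.18, 112.43 and 79.69 in virgin mice. All virgin values but that of virgin mouse 6 lay above every postpartum value. The difference was -0.29 (limma adjusted p = 0.382, exact p = 0.0130, and past limma p under 0.01), opposite in sign to that of the brighter probeset. Rpl35 parted in the same way without passing a threshold, with -0.17 (exact p = 0.195) in its own block and 0.10 (exact p = 0.130) elsewhere. The latter probeset, in the block of chromosome 1, is dimmer than the mixed-block one that stood for Rpl35 above. The 2 Rplp0 probesets both gave 0.16.

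**Figure D4:**
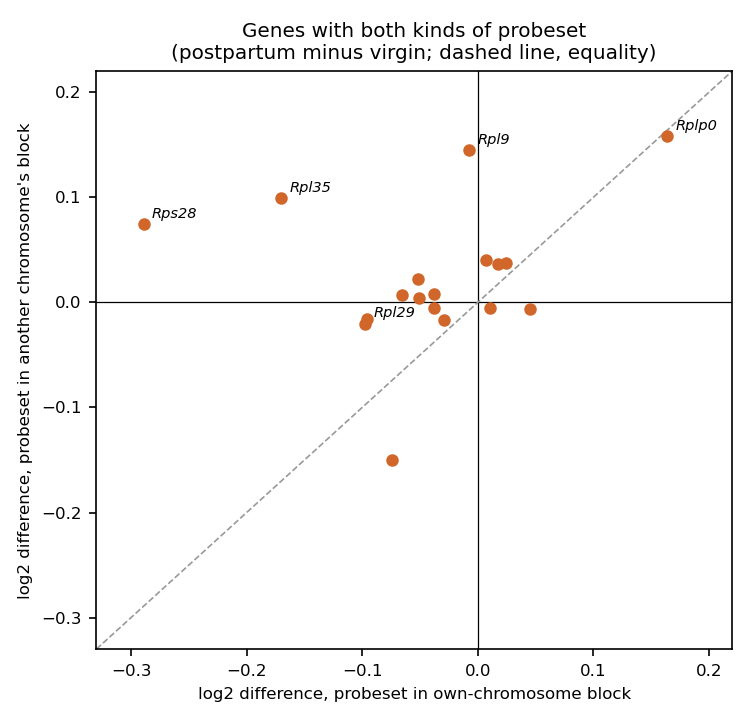
Log2 difference, postpartum minus virgin, of 18 members with a probeset in their own chromosome's block (x axis) and another elsewhere (y axis), each dot 1 gene. Rps28 (-0.29 and 0.07), Rpl35 (-0.17 and 0.10) and Rpl9 (-0.01 and 0.14) lie farthest from the dashed line of equality.

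A further 57 probesets named a matching gene together with another gene and stood for no member. Their differences ran from -0.18 to 0.55 with a median of -0.004, 0 passed p under 0.01 and 3 passed p under 0.05. Of the 15 annotated ribosomal protein pseudogenes, 1 was higher and 0 lower at p under 0.01. This was Rps15a-ps4, at 77.3 ± 8.70 in postpartum and 58.3 ± 5.40 in virgin mice (difference 0.40, limma adjusted p = 0.272, exact p = 0.00216), with all 6 postpartum values above the virgin ones. Rps15a itself had no probeset of its own.

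In the wider machinery of translation few genes passed the threshold, and several lists leaned towards postpartum mice. Bright genes of any kind leaned that way too. Of all 4439 genes above the members' median intensity, 2739 lay above zero (median 0.02), though the lists also hold dimmer genes. Of 32 measured initiation factors 0 were higher and 0 lower at p under 0.01 (median difference 0.02, nearest Eif2b3, -0.14, exact p = 0.0368, then Eif3e, 0.15, exact p = 0.0433). The same held for 12 genes listed under elongation and termination (0.03, nearest Eef1e1, 0.23, exact p = 0.0325, then Eef1d, 0.10, exact p = 0.0152). Not all of these 12 are such factors themselves, Eef1e1 and Eef1akmt1 among them. Of these 12, however, 10 lay above zero, and the list score, the mean log2 deviation of its genes on an array, ran from 0.005 to 0.06 in postpartum and from -0.05 to 0.002 in virgin mice. All 6 postpartum scores lay above every virgin score, which no other list compared here showed. The elongation factor Eef2, at 6587 and 6446, and Eef1a1, at 8853 and 8860, differed by 0.03 and -0.001. Of 21 other genes with a TOP tract, several of them also in the lists just named, 1 was higher and the median was 0.005. It was the chaperonin subunit Cct4 (1273 ± 38.3 against 1150 ± 62.9, 0.15, exact p = 0.00433). Among 4 further subunit genes 0 passed (median 0.07). The largest of these differences, 0.29 for Rps3a1 (exact p = 0.320), came with a wide virgin SD of 250.05 around 798, and the second was 0.08 for Fau (exact p = 0.327).

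Of 71 ribosome biogenesis genes 2 were higher and 0 lower (2.82% against the 2.8% of all genes), with a median of 0.04 and 53 above zero. They were Rrs1, a large subunit assembly factor, at 292 ± 17.1 against 254 ± 15.8 (0.20, exact p = 0.00649), and Ltv1, a small subunit assembly factor, at 362 ± 8.69 against 329 ± 17.2 (0.14, exact p = 0.00216), in which all 6 postpartum values lay above the virgin ones. Of 25 genes of mTORC1 and TOP control 0 passed (median 0.001). Larp4 (0.11, exact p = 0.00433) and Tbc1d7 (-0.14, exact p = 0.0758) had the smallest limma p, while Mtor and Larp1 differed by -0.02 and 0.03. Of 17 genes of ribosome quality control and assembly 1 was higher, Ltn1, the ubiquitin ligase that marks stalled nascent chains (796 ± 26.1 against 713 ± 30.9, 0.16, exact p = 0.00216), with no overlap of the groups. Pelo, which rescues stalled ribosomes, followed at -0.13 (exact p = 0.106).

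Among bright housekeeping families, the 71 mitochondrial ribosomal proteins had a median of 0.06 with 55 above zero, 1 higher (Mrpl42, 0.18, exact p = 0.00433) and 1 lower (Mrpl55, -0.16, exact p = 0.00433). Of 93 oxidative phosphorylation genes 3 were higher (the subunits Ndufa2, 0.22, exact p = 0.00216, and Ndufa11, 0.25, exact p = 0.0108, and the assembly factor Ndufaf1, 0.17, exact p = 0.00216) and 0 lower (median 0.02). Of 39 proteasome genes 0 passed (median 0.02, nearest Psmd4, 0.15, exact p = 0.0173, then Psmd8, 0.08, exact p = 0.0130). All genes above the members' median intensity had a median of 0.02, with 2739 of 4439 above zero. The cytosolic ribosomal proteins, at 0.01, thus lay between these and all genes.

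**Figure D5:**
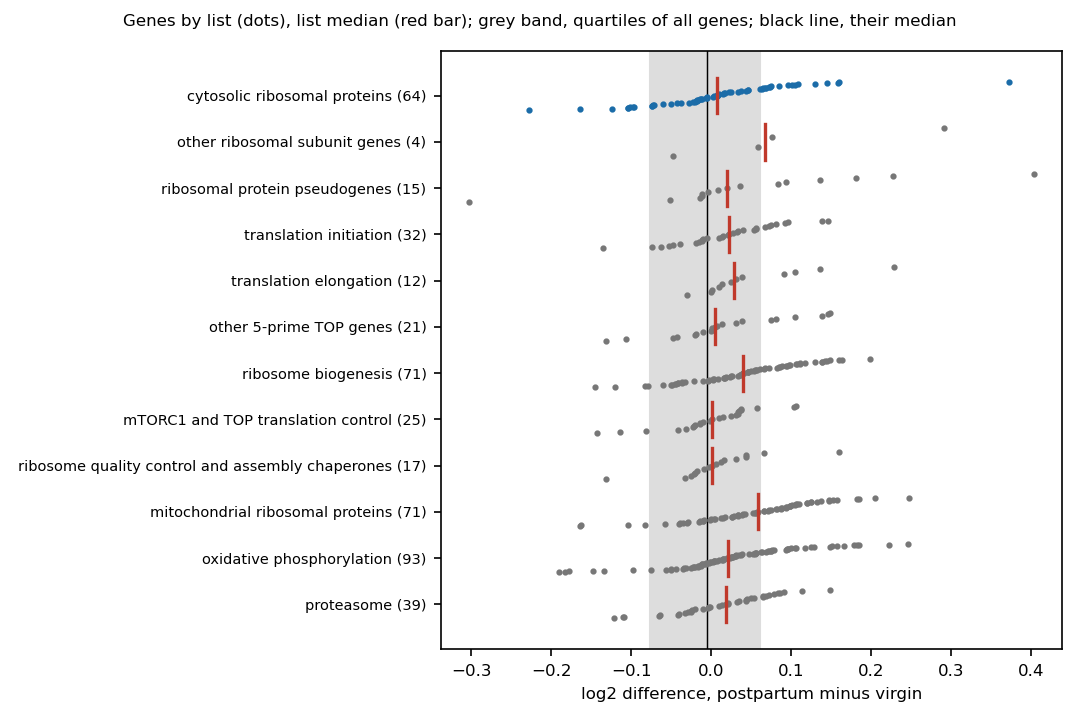
Log2 difference, postpartum minus virgin, of every measured gene of the ribosomal proteins and 11 related lists (dots, number of genes in brackets), with the list median as a red bar, the median of all genes as a black line and their quartiles (-0.08 to 0.06) as a grey band. All 12 red bars lie between 0.001 and 0.07.

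Markers of the cell types that the punch can hold were read beside these values. The 13 measured markers of medium spiny neurons, the principal cells of NAC, each had a mean intensity of 422 or more, which says nothing of how many of these cells there were. All 13 were lower on average in postpartum mice (median -0.18), 2 of them at p under 0.01 (Chrm4, -0.29, and Rgs9, -0.26), with list scores of -0.35 to 0.08 in postpartum and -0.04 to 0.24 in virgin mice as mean log2 deviations. Of 12 endothelial markers 2 were higher (Ly6c1, 1.01, and Slc2a1, 0.26), and of 12 oligodendrocyte markers 1 was lower (Opalin, -0.47). Of the 9 glutamatergic neuron and 9 neuroblast markers 1 each was higher (Slc17a6, 0.41, and Cd24a, 0.59). Of 13 pan-neuronal, 13 astrocyte, 13 microglial and 8 choroid plexus and ependymal markers 0 passed. In virgin mice 3 and 5 the medium spiny neuron score stood at 0.24 and 0.10. For some lists the score was above zero in virgin mouse 3 and below it in virgin mouse 5. These were astrocytes (0.11 and -0.01), microglia (0.07 and -0.002), oligodendrocytes (0.03 and -0.10) and endothelium (0.02 and -0.11). For astrocytes and microglia virgin mouse 5 was near zero, while the lowest virgin scores were -0.11 and -0.12. The score was on the same side in both mice for pan-neuronal (0.03 and 0.001), choroid plexus and ependymal (0.25 and 0.04), glutamatergic neuron (-0.13 and -0.14) and neuroblast markers (-0.11 and -0.16). The part of cell composition in the ribosomal protein values was not tested.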

How the data were processed

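A single array was run per mouse, on 200 ng of NAC RNA, for 6 postpartum and 6 virgin animals. The authors summarised the scanned probes with PLIER (Affymetrix Power Tools 1.12.0 in the submitters' processing notes). The authors deposited 1 normalised intensity per probeset on a linear scale for 41345 probesets. The genome build behind the probesets is not given in the sources used here. The number of arrays limits the precision.

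Values under 1 were set to 1 before taking log2, which understates changes near that floor. The 2 groups entered limma (version 3.58.1, run in R 4.3.3; lmFit and eBayes), with the threshold of unadjusted p under 0.01 taken from the methods, Benjamini-Hochberg adjustment over all probesets and two-sided exact permutation tests over 924 splits of the arrays (smallest possible p 0.00216). The fit was tested on simulated data. All p-values not called exact are from limma, and its 95% intervals use its moderated SE. A probeset was named where the platform annotation gives 1 gene (23521 probesets; 1820 name several and 16004 are not listed), and the brightest stood for a gene. Repeated probesets with identical values occurred in Rps12 (6 probesets), Rpl23a (2) and Rps19 (2) and counted once. The block of a probeset was read from the 10 named probesets on each side in number order, at least 80% of them on 1 chromosome. Scores of marker lists are mean log2 deviations.

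The members, gene lists and tests were chosen with earlier results of these data known. The text names the 16 members of smallest p, the 3 brightest and 3 dimmest, the stalk genes, some paralogs with their parents, reference genes, members seen in the study's supplement (Rpl27a, Rpl29, Rps16, Rps28), and of the related translation lists the 2 genes of smallest p and those under 0.01, and of the marker and pseudogene lists those under 0.01. Eef1a1, Eef2, Mtor and Larp1 were added for their roles after their values were seen. Alternatives covered normalisation, scale, filters, probeset choice, variance models, replicate blocks and each array left out. The probeset in the gene's own block and the removal of 2 virgin arrays were added after the data had been seen. The replicates are separate mice.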

Additional observations from a re-analysis of the deposited data

Results flagged for a closer look

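In 4 of 58 groups of 6 arrays, over the named members and the median of all members on each array, 1 array stood apart from the other 5 by Dixon's criterion, and chance alone gives about 1 in 20 such groups. Rpl9 was 1925 in virgin mouse 3, where the other virgin mice lay between 1499 and 1645. Rps7 was 522.3 in postpartum mouse 1, against 664.6 to 693.4 in the others of the group. Rps27l was 378.5 in postpartum mouse 4, against 324.6 to 332.9. Rps28 was 1368 in postpartum mouse 5, against 1482 to 1540. The 4 values came from 4 different mice.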

How the results depend on the processing

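The median log2 difference of the members lay between -0.02 and 0.04 under all 23 alternatives that give one, within the spread between mice. The number of members higher at p under 0.01 was 1 in the report, 0 among probesets above the median intensity only (55 members, without Rps16), 0 with the replicate number as a block, 2 at p under 0.05, and 1 to 2 with each array left out in turn. The second member was Rpl27a without postpartum replicate 6 and Rpl9 without virgin replicate 3. The number lower was 0 in the report and with any array left out, and 1 with the dimmest probeset of a gene or the probeset in the gene's own block (60 genes), where Rps28 turned to -0.29 and passed. The cause was not tested.

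Rps16 ranged from 0.30 to 0.46, passing with any array left out and missing the threshold with the block. The block lowered the count over all genes from 621 to 326, and linear intensities raised it to 931. Deviations of same-numbered mice correlated between -0.17 and 0.11. Such low values cannot show that mice of the same number shared no collection day or batch. The paper states that brains of both groups were obtained on the same day, with dissections alternating between them. Whether the replicate numbers follow that order is not given in the sources used here, so the result with the block stands beside the main one. Over 28 named members and 694 comparisons with an alternative, 689 counted as alike, 1 as weaker, 2 as stronger and 2 as reversed. A gene that passed under neither setting counted as alike even where its sign changed. Rps24, for example, ran from -0.07 to 0.13 over the alternatives and counted as alike in all of them.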
